A study of Mus musculus with 12 samples.

Results

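Platelet-derived growth factor (PDGF) signalling and the markers of fibro-adipogenic progenitors were compared between dystrophic and control muscle over 10 genes. They are the ligands Pdgfa, Pdgfb, Pdgfc and Pdgfd, the receptors Pdgfra and Pdgfrb, and the surface or secreted markers Ly6a, Cd34, Dpp4 and Pi16. The genes were chosen by symbol, and 10 of 10 were found among the 24421 entries of the count table and passed the filter on low counts, which left 13937 genes. The samples were tibialis anterior muscles, a hindlimb muscle at the front of the shin, of male mice aged 4 months, with 6 libraries labelled C57Bl/6 (WT) and 6 labelled mdx/mTR. The mdx allele inactivates Dmd, the gene of dystrophin, and mTR is the RNA component of mouse telomerase, symbol Terc. The WT strain carries neither change, so parts due to dystrophin and to telomerase cannot be told apart.

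Fibro-adipogenic progenitors are stromal cells that lie between muscle fibres, carry PDGF receptor alpha on their surface, expand after injury and support repair, and can become matrix-producing fibroblasts or fat cells. PDGF ligands are secreted dimers that activate a pair of receptor tyrosine kinases. PDGF receptor alpha, encoded by Pdgfra, marks these progenitors, whereas PDGF receptor beta, encoded by Pdgfrb, is strongest in pericytes and vascular smooth muscle. Cells expressing Dpp4 and Pi16 have been described as a progenitor state of fibroblasts in many tissues, and Ly6a (the Sca-1 antigen) and Cd34 are used to sort the progenitors but are found on endothelial cells too.

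Of the 10 genes, 3 rose in mdx/mTR (Pdgfra, Pdgfc and Cd34), 1 fell (Pdgfd) and 6 did not pass the test (edgeR quasi-likelihood test, Benjamini-Hochberg adjusted p below 0.05 over all genes tested). Over all genes tested, 48.3% passed, 25.0% higher and 23.4% lower, so 4 of 10 is near the background and is not a result about the group as a whole. The median log2 fold change was 0.01 over the 10 genes and 0.01 over all tested genes. In 3 of the 10 (Pdgfra, Pdgfc and Pdgfd) the libraries of the groups did not overlap, which held for 25.2% of all genes tested. Levels below are counts scaled to a common library size (CPM) with TMM factors, which align the bulk of genes between libraries, and each fold change sets mdx/mTR over WT. The labels number the samples without tying them to named animals, so p-values measure the spread between these libraries.

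The stretch of genome just before the start of transcription is shown for the receptor and the pair of ligands whose groups did not overlap, since the ligands changed in opposite directions. Each is the 250 bases before the RefSeq start in GRCm38.p6 on the plus strand, 5′ to 3′, at chr5:75152001-75152250, chr3:81036166-81036415 and chr9:6168236-6168485, and capitals mark motif matches.
Pdgfra: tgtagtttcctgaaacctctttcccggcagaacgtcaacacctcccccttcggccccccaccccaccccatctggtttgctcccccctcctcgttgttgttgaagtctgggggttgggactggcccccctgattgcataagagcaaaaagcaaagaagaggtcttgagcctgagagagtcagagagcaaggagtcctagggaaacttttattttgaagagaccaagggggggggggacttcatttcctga
Pdgfc: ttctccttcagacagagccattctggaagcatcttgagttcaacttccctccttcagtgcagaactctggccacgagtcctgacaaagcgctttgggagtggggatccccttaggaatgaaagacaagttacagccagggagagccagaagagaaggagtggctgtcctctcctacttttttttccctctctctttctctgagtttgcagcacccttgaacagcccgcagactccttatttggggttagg
Pdgfd: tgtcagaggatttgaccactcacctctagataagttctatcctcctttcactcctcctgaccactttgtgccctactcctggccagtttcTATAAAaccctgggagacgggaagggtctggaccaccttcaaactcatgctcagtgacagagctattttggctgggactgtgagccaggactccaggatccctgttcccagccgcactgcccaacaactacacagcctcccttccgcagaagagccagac
Searched on both strands were the TATA box (TATAAA), the CCAAT box (CCAAT), the GC box (GGGCGG) and the AP-1 site (TGANTCA). Pdgfd had 1 match to the letters TATAAA, which 12.4% of all 32851 promoters in the RefSeq table hold. The search did not weigh the distance of a match to the start, so a match is not shown to be a working box. No searched motif was in the windows of Pdgfra or Pdgfc. Letters of the CCAAT box are in 33.8% of all promoters, those of the GC box in 32.7% and those of the AP-1 site in 6.75%. The GC content of these windows was 54.4% for Pdgfra, 50.8% for Pdgfc and 53.6% for Pdgfd.

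The receptors parted. Pdgfra, the receptor that binds PDGF-A, PDGF-B and PDGF-C, ran from 26.7 to 36.3 CPM in WT (median 33.8) and from 54.5 to 74.8 CPM in mdx/mTR (median 58.6). All 6 mdx/mTR libraries lay above all 6 WT libraries. The WT mean of Pdgfra was 32.6 ± 3.85 CPM and the mdx/mTR mean 61.2 ± 7.37 CPM (SD over 6 libraries), a 1.88-fold rise with a 95% interval of 1.64 to 2.15. Its log2 fold change was 0.91 ± 0.09 (SE; edgeR adjusted p 5.2e-06), and 8.50% of all tested genes had a higher value. These are bulk samples, so more cells of a type and more RNA per cell cannot be told apart.

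Pdgfrb, the receptor for PDGF-B and PDGF-D, ran from 68.8 to 88.5 CPM in WT (median 77.6) and from 62.6 to 92.4 CPM in mdx/mTR (median 76.5). The groups overlapped almost fully, with the lowest and the highest library both in mdx/mTR. Its log2 fold change was -0.05 ± 0.09 (SE; edgeR adjusted p 0.666), with a 95% interval of -0.24 to 0.14. That interval leaves out a rise of the size seen in Pdgfra. With library totals alone the sign turned, to 0.11 (edgeR adjusted p 0.409), because that scaling moved the median of all genes from 0.01 to 0.17.

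**Figure D1:**
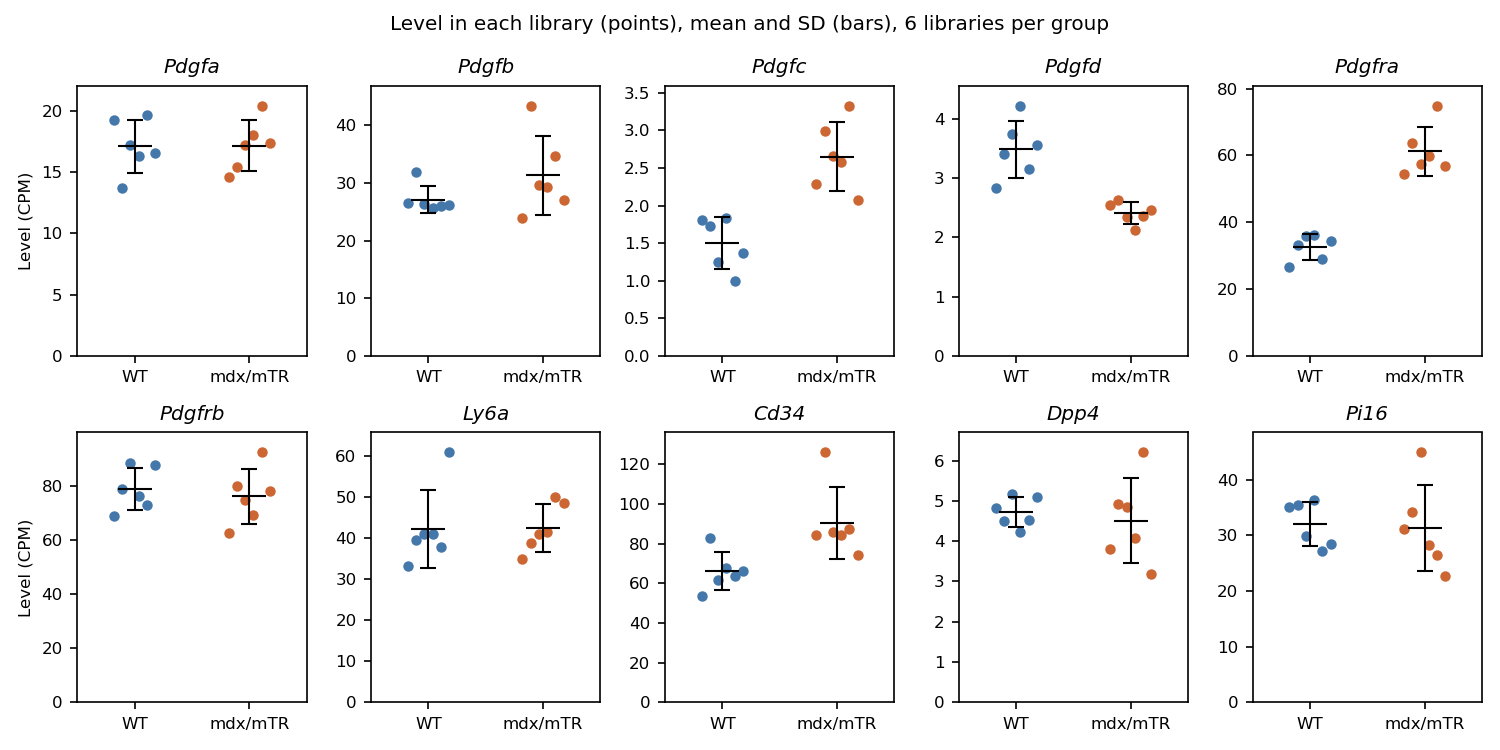
Level of each of the 10 genes in CPM (y axis, from 0) in every WT and mdx/mTR library (points), with the mean and SD of each group (bars). Pdgfra and Pdgfc sit higher and Pdgfd lower in all 6 mdx/mTR libraries. The groups overlap for Pdgfa, Pdgfb, Pdgfrb, Ly6a, Cd34, Dpp4 and Pi16.

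The ligands did not move together. Pdgfc, which is secreted in latent form and acts mainly through PDGF receptor alpha once cleaved, ran from 0.993 to 1.83 CPM in WT (median 1.55) and from 2.08 to 3.32 CPM in mdx/mTR (median 2.61). Every mdx/mTR library was above every WT library, on 38 to 69 counts per WT library and 97 to 195 per mdx/mTR library. Its log2 fold change of 0.82 ± 0.17 (SE; edgeR adjusted p 0.0013) is a 1.77-fold rise with a 95% interval of 1.38 to 2.27.

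Pdgfd, the other latent ligand, acts mainly through PDGF receptor beta. It ran from 2.83 to 4.22 CPM in WT (median 3.48) and from 2.13 to 2.64 CPM in mdx/mTR (median 2.41). All 6 mdx/mTR libraries lay below all 6 WT libraries, and the mdx/mTR libraries were close to each other (SD 0.179 CPM, against 0.479 CPM in WT). On the log2 scale the change was -0.53 ± 0.11 (SE; edgeR adjusted p 0.0012), which leaves 0.693 of the WT level with a 95% interval of 0.591 to 0.813.

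Pdgfb, the ligand by which endothelial cells recruit pericytes, ran from 25.6 to 32.0 CPM in WT (median 26.3) and from 24.0 to 43.3 CPM in mdx/mTR (median 29.5). Only 2 of 6 mdx/mTR libraries exceeded the highest WT library, and 1 was below the lowest. The log2 fold change was 0.21 ± 0.12 (SE; edgeR adjusted p 0.160), with a 95% interval of -0.05 to 0.46. With library totals alone Pdgfb passed (0.38, edgeR adjusted p 0.0410), and without mdx/mTR replicate 2, its highest library, the log2 fold change was 0.09 (adjusted p 0.409).

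Pdgfa, whose homodimer binds PDGF receptor alpha, ran from 13.7 to 19.6 CPM in WT (median 16.9) and from 14.6 to 20.4 CPM in mdx/mTR (median 17.3). The ranges nearly coincided. Its log2 fold change was 0.0042 ± 0.10 (SE; edgeR adjusted p 0.975), with a 95% interval of -0.20 to 0.21, which leaves out a change of the size seen in Pdgfc.

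Per kilobase of the longest coding transcript (GENCODE M21), Pdgfa and Pdgfb were the main ligands in both groups. Of the summed ligand level per kilobase, Pdgfb made up 48.4% ± 4.35 in WT and 51.5% ± 5.0 in mdx/mTR, and Pdgfa 43.5% ± 4.79 and 41.0% ± 4.82 (SD, n = 6 each). Pdgfc made up 2.23% ± 0.523 in WT and 3.67% ± 0.324 in mdx/mTR, and Pdgfd 5.87% ± 0.951 and 3.82% ± 0.607. The ligands that changed were thus the minor ones. Within a library, the log2 ratio of Pdgfc to Pdgfd counts was -1.24 ± 0.38 in WT and 0.12 ± 0.27 in mdx/mTR, with no overlap. This difference of 1.36 is a 2.56-fold shift (two-sided exact permutation test, p 0.0022, adjusted p 0.0087 over 4 ratios, higher in 6 of 6 libraries), and 0.0022 is the smallest p this design allows. With the replicate number as a block the adjusted p was 0.0625, in a test whose smallest unadjusted p is 0.0312. The log2 ratio of Pdgfa to Pdgfb was -0.67 ± 0.29 in WT and -0.85 ± 0.32 in mdx/mTR and did not pass (exact permutation p 0.381, adjusted p 0.508). Without WT replicate 2, where Pdgfb was highest and Pdgfa lowest of the WT libraries, the difference was -0.29 and passed (exact permutation test, adjusted p 0.0260).

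**Figure D2:**
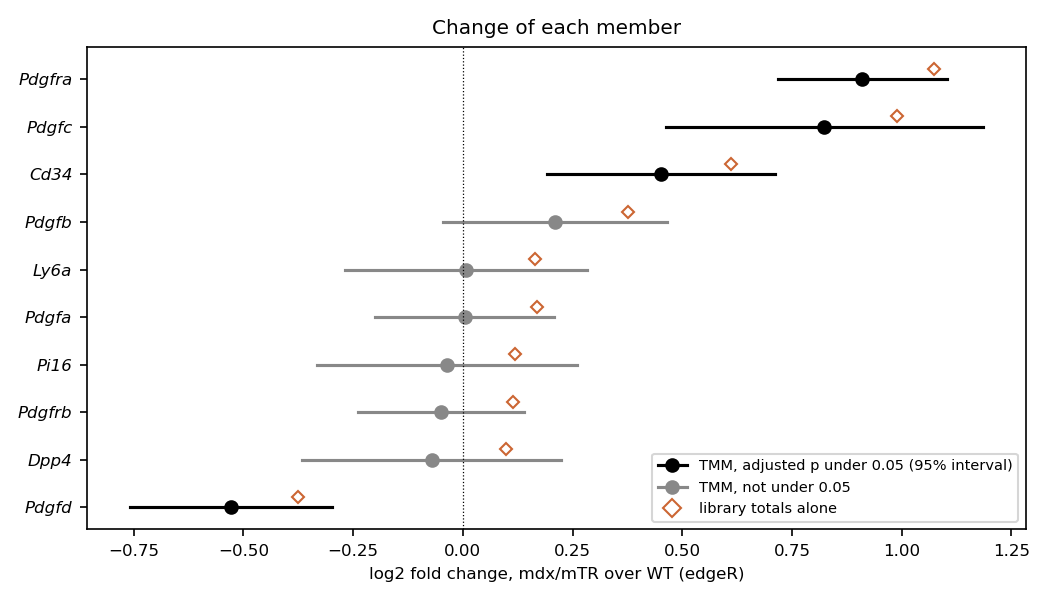
Change from WT to mdx/mTR as log2 fold change (x axis) for each gene, with TMM scaling (circles, 95% interval as lines, black where the adjusted p is below 0.05) and with library totals alone (open diamonds). Pdgfra is at 0.91 and Pdgfd at -0.53 with TMM, and every open diamond lies to the right of its circle.

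Among the markers of the progenitors, Cd34 rose, and Ly6a, Dpp4 and Pi16 did not pass. Cd34, a sialomucin of progenitors and endothelium, ran from 53.8 to 82.9 CPM in WT (median 65.0) and from 74.1 to 126 CPM in mdx/mTR (median 85.3). Of the mdx/mTR libraries, 5 of 6 exceeded the highest WT library, so the groups overlapped by 1 library on each side. The log2 fold change was 0.45 ± 0.12 (SE; edgeR adjusted p 0.0072), a 1.37-fold rise with a 95% interval of 1.14 to 1.64. Without mdx/mTR replicate 2, at 126 CPM, it was 0.33 (adjusted p 0.0083).

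Ly6a, which encodes the Sca-1 antigen, ran from 33.3 to 60.9 CPM in WT (median 40.2) and from 34.8 to 50.1 CPM in mdx/mTR (median 41.3). WT replicate 6 held the highest value of all 12 libraries, and the other 5 WT libraries lay between 33.3 and 41.1 CPM. The log2 fold change was 0.0075 ± 0.13 (SE; edgeR adjusted p 0.966), with a 95% interval of -0.27 to 0.28, and without WT replicate 6 it was 0.14 (adjusted p 0.240). Of the 50-base stretches of its transcript, 10.04% also occur in other genes, among them Ly6c1 and Ly6c2, so the level of Ly6a is uncertain, since the handling of reads from such stretches is not known.

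Dpp4, a surface peptidase, ran from 4.22 to 5.16 CPM in WT (median 4.68) and from 3.19 to 6.20 CPM in mdx/mTR (median 4.45). The mdx/mTR libraries spread on both sides of WT, 3 below its lowest and 1 above its highest value. Dpp4 had a log2 fold change of -0.07 ± 0.14 (SE; edgeR adjusted p 0.695), with a 95% interval of -0.37 to 0.22. Without mdx/mTR replicate 5 it was -0.19 (adjusted p 0.204), and with library totals alone it was 0.099.

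Pi16, a secreted peptidase inhibitor, ran from 27.3 to 36.3 CPM in WT (median 32.5) and from 22.7 to 44.9 CPM in mdx/mTR (median 29.7). As with Dpp4, the mdx/mTR libraries were more spread (SD 7.71 against 4.01 CPM in WT), and a test of the spread was not made. Pi16 had a log2 fold change of -0.04 ± 0.14 (SE; edgeR adjusted p 0.846), with a 95% interval of -0.33 to 0.26. It was -0.16 without mdx/mTR replicate 3, its highest library, 0.12 with library totals alone and 0.0051 under upper quartile scaling, none of which passed. The log2 ratio of Dpp4 to Pi16 within a library was -2.75 ± 0.26 in WT and -2.79 ± 0.38 in mdx/mTR (exact permutation p 0.851, adjusted p 0.851). The ratio of Ly6a to Cd34 was -0.66 ± 0.31 and -1.08 ± 0.38 and did not pass (exact permutation p 0.0606, adjusted p 0.121), but passed without WT replicate 2 (-0.50, adjusted p 0.0404) and without mdx/mTR replicate 6 (-0.51, adjusted p 0.0346).

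A ratio of counts within a library needs no scaling between libraries, so each gene was also set against Pdgfra. The log2 ratio of Pdgfrb to Pdgfra was 1.28 ± 0.11 in WT (1.07 to 1.36) and 0.31 ± 0.10 in mdx/mTR (0.20 to 0.46). The groups were far apart relative to their spread: the ratio fell 1.95-fold (difference -0.96; two-sided exact permutation p 0.0022, adjusted p 0.0028 over 9 ratios, lower in 6 of 6 libraries). For Dpp4 the difference was -1.01 and for Pi16 it was -0.97, so that both were lower per Pdgfra count by 2.01-fold and 1.96-fold (exact permutation, adjusted p 0.0028 for each). Pdgfrb, Dpp4 and Pi16 did not pass on their own (log2 fold change -0.05, -0.07 and -0.04). These lower ratios therefore restate the rise of Pdgfra and do not show a fall of the other genes.

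Of the 9 ratios to Pdgfra, 8 passed and were lower in mdx/mTR, from -0.47 for Cd34 (exact permutation, adjusted p 0.0097) to -1.43 for Pdgfd (adjusted p 0.0028). They share the Pdgfra count, so they are not 9 separate results. Only 8.50% of all tested genes had a log2 fold change above that of Pdgfra (0.91). A lower ratio to Pdgfra would thus be common to most genes and is not particular to these 8. Among the 9, the exception was Pdgfc, at -4.46 ± 0.38 in WT and -4.53 ± 0.13 in mdx/mTR (difference -0.08, exact permutation p 0.662, adjusted p 0.662).

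**Figure D3:**
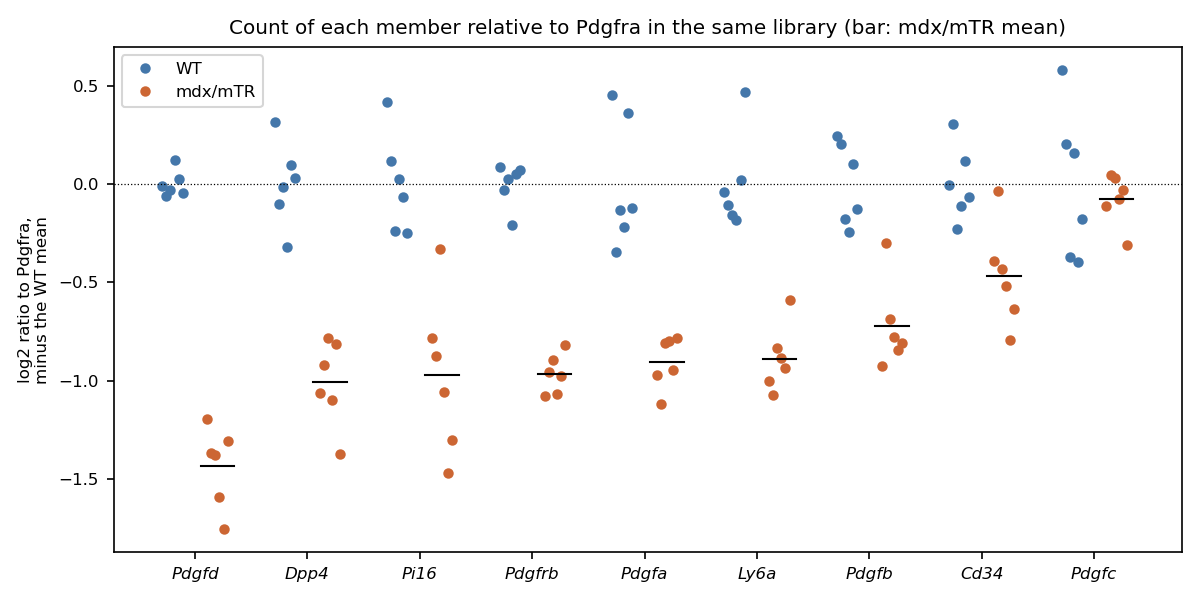
Log2 ratio of the count of each gene to that of Pdgfra in the same library, minus the WT mean of that ratio (y axis), for WT and mdx/mTR libraries (points; bars are mdx/mTR means). For 8 of 9 genes the mdx/mTR libraries are lower, with no overlap except for Cd34, and Pdgfc stays near 0 at -0.08.

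Per kilobase of the longest coding transcript, the order of levels in WT was Ly6a (44.2 CPM per kilobase), Cd34 (25.9), Pdgfrb (14.5), Pdgfb (9.21), Pdgfa (8.31), Pi16 (8.02), Pdgfra (4.77), Pdgfd (1.11), Dpp4 (0.896) and Pdgfc (0.425). Neighbours whose WT libraries overlapped were Pdgfb with Pdgfa, Pdgfa with Pi16, and Pdgfd with Dpp4. In mdx/mTR, Pdgfra stood at 8.95 CPM per kilobase and moved from the seventh to the fifth place, where it overlapped Pdgfb above it and Pdgfa below it. Pdgfc, Pdgfd and Dpp4 lay together at the bottom, at 0.753, 0.771 and 0.854 CPM per kilobase.

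The wider PDGF pathway was described with lists of genes that act before, at and after the receptor. These lists and those below were chosen with earlier results of these data known, so their counts are descriptions. Of 8 genes for ligand processing, co-receptors and binding, 5 rose and 0 fell, with a median log2 fold change of 0.60. The proteases that activate the latent ligands were among them: Plat, tissue plasminogen activator, which cleaves PDGF-C (0.89 ± 0.17 SE, edgeR adjusted p 9.4e-04), and Plau, urokinase, which cleaves PDGF-D (0.56 ± 0.08, adjusted p 7.0e-05). Pdgfrl, a receptor-like gene without a kinase domain, had the smallest p (1.91 ± 0.17, adjusted p 2.2e-06). Of 15 genes for signalling inside the cell, 5 rose and 4 fell (median -0.02), or 6 and 2 with library totals alone. Over all tested genes, library totals alone left 40.2% higher and 11.2% lower, against 25.0% and 23.4% with TMM. Src, a kinase recruited by the receptors, rose (0.84, edgeR adjusted p 1.3e-04), while Ptpn11, the phosphatase SHP2 (-0.49, adjusted p 3.1e-05), and Sos1, a Ras exchange factor (-0.37, adjusted p 5.7e-05, or -0.21 with library totals alone), fell. Of 10 tested immediate early genes, which growth factors induce within minutes, 3 rose and 2 fell (median 0.10). Junb rose (1.09, edgeR adjusted p 0.0046), Ier3 rose (0.51, adjusted p 0.0048) and Srf, a transcription factor that drives such genes, fell (-0.27, adjusted p 0.0037). With library totals alone 0 of them fell, and Srf was -0.12 (edgeR adjusted p 0.0812).

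Most listed genes of fibroblasts outside the 10 rose, in lists chosen with earlier results of these data known. Of 16 tested fibroblast identity genes, 14 rose and 0 fell, with a median log2 fold change of 0.77. With 1 library left out, the number that rose ranged from 11 to 15. In the main fit 6 of the 16 rose by more than Pdgfra. Dpt (0.94, edgeR adjusted p 6.3e-06), Serpinf1 (0.78, adjusted p 7.3e-06) and Dcn (0.59, adjusted p 1.0e-05), all secreted proteins of fibroblasts, had the smallest p. The summed level of all 17 listed fibroblast identity genes was 2001 to 2939 CPM in WT and 4075 to 6352 CPM in mdx/mTR. None of them was at 0 in all libraries. The 2 that did not pass were Hic1 (0.0045, edgeR adjusted p 0.985) and Cd248 (0.22, adjusted p 0.223), named after their values were seen. Tcf21 was too low to test.

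All 11 genes of the activated fibroblast and myofibroblast list rose (median 1.95), 8 of them by more than Pdgfra. Timp1, an inhibitor of matrix proteases, had a log2 fold change of 4.00 ± 0.55 (SE; edgeR adjusted p 6.9e-05), Runx1, a transcription factor, 2.63 ± 0.19 (adjusted p 3.8e-07), and Itgav, an integrin chain that releases active TGF-beta, 0.39 ± 0.06 (adjusted p 1.7e-04). Of the 12 genes listed with the Dpp4 and Pi16 state, 5 rose and 2 fell (median 0.18), or 5 and 1 without mdx/mTR replicate 2. Cd55, a complement regulator (1.19 ± 0.07, edgeR adjusted p 9.0e-08), and Clec3b (0.60 ± 0.06, adjusted p 6.3e-06) rose, while Efhd1 fell (-0.70 ± 0.09, adjusted p 4.2e-05), so genes of that list changed in both directions while Dpp4 and Pi16 did not pass. Of the 9 genes of the Cxcl14 and Smoc2 state, 3 rose and 3 fell (median 0.07). Those with the smallest p were lower: Lpl, a lipase that muscle fibres express too (-1.32, edgeR adjusted p 2.8e-06), the chemokine gene Cxcl12 (-0.67, adjusted p 5.9e-05) and Enpp2 (-0.49, adjusted p 1.6e-04).

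Of 8 tested adipocyte genes, the other fate of these progenitors, 1 rose and 1 fell (median 0.00019). Cebpa, a transcription factor also found in myeloid cells, rose (0.82, edgeR adjusted p 9.0e-04), Fabp4, also an endothelial gene, fell (-0.24, adjusted p 0.0206), and Cfd did not pass (0.38, adjusted p 0.203). With library totals alone Fabp4 did not pass (-0.081, edgeR adjusted p 0.425), and 0 of the adipocyte genes fell. Without WT replicate 2 the number that rose was 2, and without mdx/mTR replicate 3 the number that fell was 2. The summed level was 199 to 247 CPM in WT and 172 to 237 CPM in mdx/mTR. Fabp4 alone made up a mean of 180 of 217 CPM in WT and 153 of 199 CPM in mdx/mTR, so the sum mostly follows Fabp4.

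**Figure D4:**
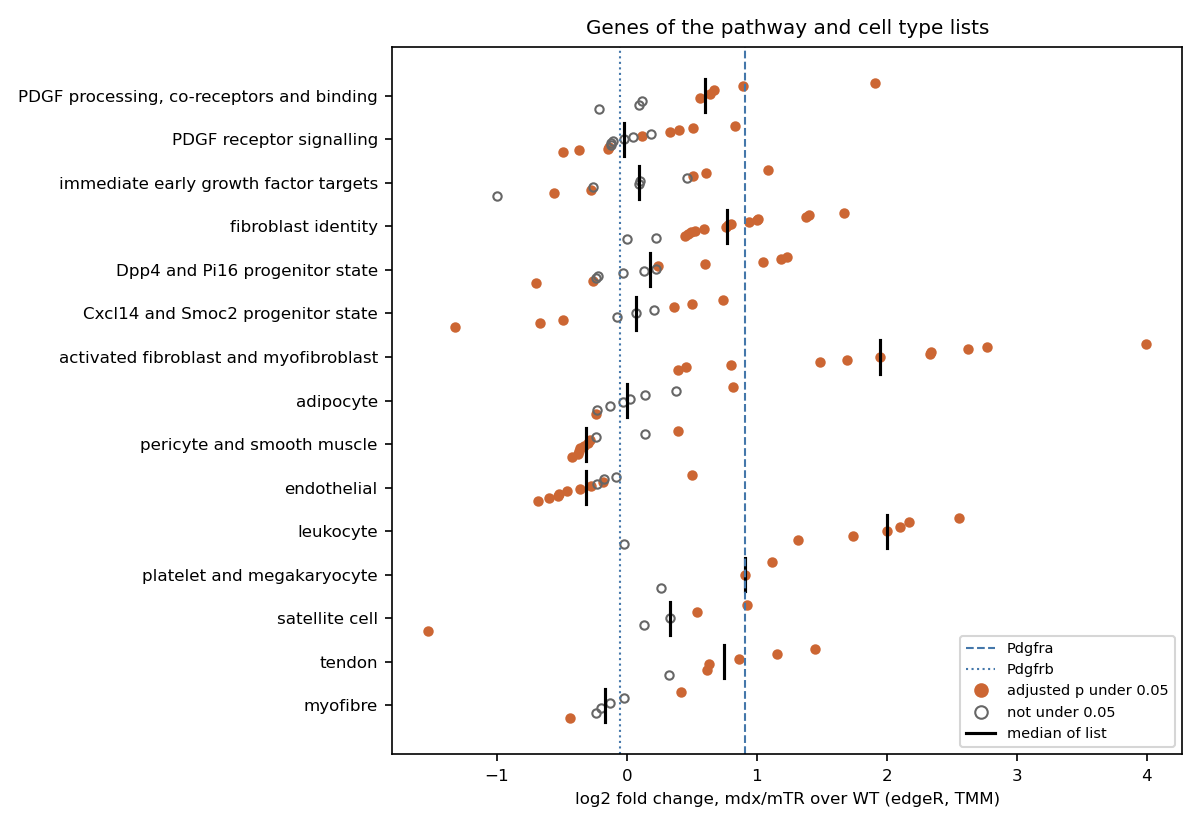
Change from WT to mdx/mTR as log2 fold change (x axis) for each tested gene of the 15 lists (rows; filled where the adjusted p is below 0.05, with the median of the list as a black bar) beside Pdgfra (dashed line) and Pdgfrb (dotted line). Fibroblast identity genes spread around Pdgfra with a median of 0.77, and pericyte and endothelial genes lie mostly left of Pdgfrb, with a median of -0.31 for pericytes and -0.32 for endothelium.

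Other cells of muscle express the same genes, and their markers moved as well. Pericyte and smooth muscle genes, which mark the cells where Pdgfrb is strongest, were lower: 7 of 10 fell and 1 rose (median -0.31). Their summed levels were 830 to 930 CPM in WT and 700 to 786 CPM in mdx/mTR. Abcc9 alone made up a mean of 465 of 890 CPM in WT and 377 of 730 CPM in mdx/mTR, so the sum mostly follows that gene. Notch3 (-0.36, edgeR adjusted p 0.0023), Myh11 (-0.42, adjusted p 0.0026) and Abcc9 (-0.30, adjusted p 0.0017) had the smallest p. With library totals alone 2 fell, Myh11 (-0.27) and Abcc9 (-0.15), Notch3 did not pass (-0.20, edgeR adjusted p 0.111) and 1 rose, and the gene that rose, Mcam, did not pass in 7 of the 12 fits that left out 1 library. Endothelial genes, which mark cells that express Pdgfb, Cd34 and Ly6a, were lower in 8 of 12 and higher in 1 (median -0.32), with summed levels of 803 to 1008 CPM in WT and 636 to 787 CPM in mdx/mTR. Flt1 (-0.69, edgeR adjusted p 1.0e-04), Tek (-0.53, adjusted p 4.3e-06) and Vwf (-0.52, adjusted p 0.0011) had the smallest p. With library totals alone 4 fell and 1 rose, and the gene that rose, Cldn5, did not pass without WT replicate 3 or without WT replicate 6.

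Leukocyte genes were higher in 6 of 7 tested (median 2.0), with summed levels of 60.6 to 109 CPM in WT and 194 to 573 CPM in mdx/mTR. Cd68 (2.55), Lyz2 (2.11) and Adgre1 (2.0), all of macrophages, had edgeR adjusted p of 2.4e-05, 1.4e-05 and 4.3e-05. Of 3 tested platelet genes, 2 rose (median 0.91), Pf4 (1.12, edgeR adjusted p 6.7e-04) and Ppbp (0.91, adjusted p 0.0484), and Itga2b did not pass (0.26, adjusted p 0.183). Ppbp did not pass in 8 of the 12 fits that left out 1 library. Gp9 and Gp1bb were too low to test. The summed platelet level was 6.50 to 9.60 CPM in WT and 10.1 to 20.6 CPM in mdx/mTR. Pf4 alone made up a mean of 4.74 of 7.32 CPM in WT and 10.3 of 14.1 CPM in mdx/mTR, so the sum mostly follows Pf4. No listed gene was at 0 in all libraries, and the part of these cells in the changes of Pdgfra, Pdgfc, Pdgfd and Cd34 was not tested.

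The genes whose deviations from the group means were most like those of Pdgfra over the 12 libraries were Cald1 (Pearson r 0.95), Tuba1a (0.94), Ajuba (0.94), Tlr4 (0.94) and Sri (0.93), out of 9508 genes of at least 5 CPM. For Pdgfrb they were Wasf2 (0.95), Eps8 (0.94), Fcgr2b (0.92), H3f3b (0.91) and Sbf2 (0.91). For Pi16 the values were lower, with Cmtm4 (0.86), Hscb (0.84), Hpn (0.82), Evc2 (0.82) and Bnip1 (0.81). These are descriptions: they are the highest of many values, and libraries share their depth and composition.

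The WT libraries held 36903560 to 40981012 counts each, and the mdx/mTR libraries 35136327 to 60330410. At this depth 3 counts, the most a library with 0 counts allows, equal 0.0460 to 0.0837 CPM, for counting error only. Dmd, the gene hit by the mdx allele, was 228 to 244 CPM in WT and 35.2 to 56.4 CPM in mdx/mTR (log2 fold change -2.34, edgeR adjusted p 8.3e-10), and Terc had 2 counts in WT and 0 in mdx/mTR, too few to check. In the authors' deposited table the same 4 of the 10 genes have an adjusted p below 0.05, where 50.1% of its genes do. For Pdgfra the log2 fold change in the authors' deposited table is 0.88, for Pdgfc 0.77, for Pdgfd -0.52 and for Cd34 0.43.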

How the data were processed

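RNA of 12 tibialis anterior libraries was sequenced. The authors deposited whole-number counts per gene symbol; the submitters' processing notes name FastQC, STAR, DESeq2 and the build mm10, and the counter, annotation and strand handling are not given in the sources used here. A second table that the authors deposited gives their test: per the file headers, its columns are a mean signal over libraries, log2 fold changes and standard errors, a score, and p-values.

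Counts were tested with edgeR 4.0.16 (R 4.3.3): filterByExpr, TMM scaling, a quasi-likelihood fit with group as the only term, and Benjamini-Hochberg adjustment over 13937 genes with a threshold of 0.05. The SE is the size of the log2 fold change divided by the square root of F. Ratios within a library used counts plus 0.5 and exact permutation tests (scipy 1.17.1), adjusted over 9 and over 4 ratios. The procedure was tested on simulated data. Alternatives were no filter, other scalings, DESeq2 1.42.0, limma-voom (3.58.1), a replicate block, each library left out, an adjusted p of 0.01 and, for ratios, 5 added to each count.

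The genes and the 15 lists were chosen with earlier results of these data known. A further list is not reported here. Named genes are the 10, Dmd and Terc, the 3 smallest p of each list, and for Pdgfra, Pdgfrb and Pi16 the 5 genes with the highest Pearson r of log2(CPM + 0.5) deviations from the group means. Exons of 6 of the 10 genes (Pdgfa, Pdgfc, Pdgfra, Cd34, Dpp4 and Pi16) overlap an antisense gene in GENCODE M21. Without known strand handling such reads cannot be told apart, which also holds for Pdgfra, Pdgfc and Cd34, the genes that rose. Replicate pairs differed by more than sampling noise (chi-square per degree of freedom 8.87 to 116). Per-sample columns without a sample numbered 0. RefSeq promoters of GRCm38.p6 matched 7 of the 10 genes.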

Additional observations from a re-analysis of the deposited data

Results flagged for a closer look

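A library was singled out when its distance to the nearest of the other 5, as a fraction of the whole range, passed Dixon's critical value at 95% for 6 values. This happened 13 times in 84 sets of 6 values; about 1 in 20, or 4.2, would do so by chance, and many of these values share counts.

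WT replicate 2 and mdx/mTR replicate 2 stood apart for Pdgfb. In WT replicate 2, Pdgfb was 32.0 CPM against 25.6 to 26.4 CPM in the other WT libraries, its share of the ligand level was 56.9% against 45.0% to 48.2%, and the log2 ratio of Pdgfa to Pdgfb was -1.22 against -0.66 to -0.41. In mdx/mTR replicate 2, the share of Pdgfb was 61.6% against 48.4% to 50.6%, the share of Pdgfa was 31.3% against 41.9% to 44.4%, and the log2 ratio of Pdgfa to Pdgfb was -1.49 against -0.79 to -0.64. The same library had 126 CPM of Cd34 against 74.1 to 87.3 CPM.

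WT replicate 6 had 60.9 CPM of Ly6a against 33.3 to 41.1 CPM, a log2 ratio of Ly6a to Pdgfra of 0.83 against 0.18 to 0.38, and a summed platelet level of 9.60 CPM against 6.50 to 7.40 CPM. In mdx/mTR replicate 5, the log2 ratio of Dpp4 to Pi16 was -2.10 against -3.21 to -2.80, and the summed level of activated fibroblast and myofibroblast genes was 732 CPM against 228 to 412 CPM. In mdx/mTR replicate 6, the summed level of PDGF receptor signalling genes was 827 CPM against 762 to 778 CPM.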

How the results depend on the processing

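The calls of Pdgfra, Pdgfc, Pdgfd and Cd34 kept their direction and side of the threshold under all 7 other settings and all 12 fits that left out 1 library. Pdgfra ranged from 0.84 to 1.07, Pdgfc from 0.73 to 0.99, Pdgfd from -0.58 to -0.37 and Cd34 from 0.33 to 0.61. The number of genes called of the 10 was 4 throughout, except for 5 with library totals alone. Over all genes tested, 6736 passed in the main fit, 4621 to 7156 under the other settings and 6125 to 6816 with 1 library left out. With library totals alone 40.2% were higher and 11.2% lower, against 25.0% and 23.4% with TMM. The sign of genes near 0 turned: Pdgfa was -0.0025 with DESeq2 size factors, -0.0026 with DESeq2 and -0.0021 with limma-voom, and with library totals alone Pdgfrb was 0.11, Dpp4 0.099 and Pi16 0.12, while Pi16 was 0.0051 with upper quartile scaling. With 1 library left out, Pdgfa ranged from -0.055 to 0.047, Pdgfrb from -0.12 to 0.00070, Ly6a from -0.054 to 0.14, Dpp4 from -0.19 to 0.012 and Pi16 from -0.16 to 0.043, and the log2 ratio of Pdgfc to Pdgfra from -0.16 to 0.040 and of Dpp4 to Pi16 from -0.18 to 0.044. The number of the 4 pair ratios that passed ranged from 1 to 3, with 3 without WT replicate 2 and 2 without mdx/mTR replicate 6; the cause was not tested. Same-numbered libraries had correlations of deviations from -0.15 to 0.35, with 2 of 6 above 0.1. Such values cannot decide whether the numbers pair the samples, and replicate 2 stood apart for Pdgfa to Pdgfb in both groups. With the replicate block, 4 of the 10 genes and 8 of the 9 ratios to Pdgfra passed, and 0 of the 4 pair ratios did, in a test on 6 differences. Among lists, the tendon count of genes that rose was 3 in 7 of the 12 fits that left out 1 library. Pdgfc and Pdgfd rest on the fewest counts, 38 to 195 per library.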

Other observations

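Lists of other cells are described here, and the part of these cells in the changes above was not tested. Of 6 tendon genes, 5 rose (median 0.75), led by Comp (1.45, edgeR adjusted p 5.1e-05), Thbs4 (1.16, adjusted p 3.1e-04), both matrix proteins, and Tnmd (0.86, adjusted p 0.0027). Of 5 satellite cell genes, 2 rose and 1 fell: Myod1, a myogenic transcription factor (0.93, adjusted p 1.8e-04), Myf5 (0.54, adjusted p 0.0246, not passed in 4 of the 12 fits without 1 library) and Chrdl2 (-1.53, adjusted p 1.3e-04). Of 6 muscle fibre genes, 1 rose, Mylpf (0.42, adjusted p 0.0032), 1 fell, Pygm (-0.44, adjusted p 0.0036, or -0.29 with library totals alone), and Tnnt3 did not pass (-0.24, adjusted p 0.0562).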
